A study of Mus musculus with 8 samples.

Results

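The aryl hydrocarbon receptor gene Ahr and 4 of its textbook targets, Ahrr, Tiparp, Cyp1b1 and Nqo1, were read out in RNA-seq libraries of activated muscle stem cells (ASCs), the cells that rebuild skeletal muscle after injury. The 5 genes were chosen by symbol from a table of 18877 gene symbols, and all 5 are in it. They were chosen with their wild-type and mfn2-/- values known, so those values are given below as a description and support nothing by themselves. The study asked how loss of mitofusin 2, a protein of the mitochondrial outer membrane that starts fusion, alters regenerating muscle. There were 4 wild-type and 4 mfn2-/- libraries, each of total RNA from ASCs of the tibialis anterior muscle. All mice carried a mito-Dendra2 allele switched on by the Pax7-Cre(ERT2) driver and received tamoxifen at 75 mg/kg daily for 5 days, then 50 uL of 1.2% BaCl2 into the muscle 2 days after the last dose. Cells were collected 2 days after injury as CD34-, Dendra2+, DAPI- events. In mfn2-/- mice the same driver removed conditional Mfn2 alleles, so the deletion was directed at cells that had expressed Pax7 and their progeny. Age and sex are not given in the sources used here, and the labels do not say whether each library came from its own animal, so p-values measure only the spread between these libraries.

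AHR is a ligand-activated transcription factor of the bHLH-PAS family. Without ligand it rests in the cytoplasm with HSP90 and the cochaperone p23, and with ligand it enters the nucleus, pairs with ARNT and binds xenobiotic response elements. Its targets include the CYP1 monooxygenases, which oxidise aromatic compounds, NQO1, which reduces quinones, and the feedback inhibitors AHRR and TIPARP, the latter an ADP-ribosyltransferase that modifies AHR. ARNT is also the partner of HIF1A.

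The sequence that AHR and ARNT recognise is short, and it is shown in the upstream bases of the feedback inhibitors and of the CYP1 genes because the members' values below diverge between these targets. The core of the xenobiotic response element is GCGTG, or CACGC on the opposite strand, and its letters also form one version of the hypoxia response element. The stretches run 5′ to 3′ along the gene's own strand, up to the last base before the annotated start or before the first exon, with the core in capitals. They are Ahrr chr13:74292332-74292531 on the minus strand, Tiparp chr3:65528247-65528409 on the plus strand, Cyp1b1 chr17:79715062-79715261 on the minus strand and Cyp1a1 chr9:57697413-57697612 on the plus strand, from RefSeq on GRCm38.p6.
Ahrr: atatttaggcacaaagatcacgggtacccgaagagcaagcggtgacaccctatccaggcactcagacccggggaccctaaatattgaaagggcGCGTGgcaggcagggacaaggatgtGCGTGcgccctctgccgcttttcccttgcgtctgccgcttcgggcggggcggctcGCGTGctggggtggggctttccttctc
Tiparp: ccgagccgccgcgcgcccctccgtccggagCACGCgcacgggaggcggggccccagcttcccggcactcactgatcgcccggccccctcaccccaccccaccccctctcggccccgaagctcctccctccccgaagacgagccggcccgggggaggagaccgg
Cyp1b1: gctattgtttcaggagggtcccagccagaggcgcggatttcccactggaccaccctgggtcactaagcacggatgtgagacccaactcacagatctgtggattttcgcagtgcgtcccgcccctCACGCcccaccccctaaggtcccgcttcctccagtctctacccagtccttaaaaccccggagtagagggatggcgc
Cyp1a1: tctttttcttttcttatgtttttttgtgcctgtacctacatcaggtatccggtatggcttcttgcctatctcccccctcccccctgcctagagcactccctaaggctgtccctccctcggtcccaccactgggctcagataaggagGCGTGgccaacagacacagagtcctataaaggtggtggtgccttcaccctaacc

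Ahrr held the core 3 times, 107, 82 and 27 bases before its start, and the last of these lay within the longer form TNGCGTG. Tiparp, Cyp1b1 and Cyp1a1 held it once each, 170, 76 and 54 bases before the start. Nqo1 had no match in its window, which runs from 250 bases before the start to 50 after it, and neither did Cyp1a2. Of the members, 4 had an entry in the RefSeq table, and Ahr was the exception. The core occurred on either strand in 32.4% of 32851 windows of that length and the longer form in 5.07%, so a match is common and is a description of the letters only. None of these matches overlapped an E-box (CACGTG). The whole of the Tiparp stretch lies in exons of other genes in GENCODE M21.

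Values below are normalized read counts, meaning reads divided by 1 size factor per library, given as the mean ± SD of 4 libraries. Changes are differences of log2(value + 1) with the standard error (SE) of a limma fit across all genes, mfn2-/- minus wild-type, and understate the change of weak genes. The libraries held 1880464 to 7508215 reads, and mfn2-/- replicate 4 had reads of 9646 genes against 12613 to 15270 in the others. The targeted gene Mfn2 was lower in every mfn2-/- library (104 to 172) than in any wild-type library (202 to 245), by a two-sided exact permutation test with p = 0.0286, the smallest that 4 against 4 can give, and its adjusted p across all genes was 0.0848 (limma, Benjamini-Hochberg). Reads of 4 Y-linked genes numbered 807 to 2336 in 4 libraries and 0 in the remaining 4, which were replicates 1 and 2 of wild-type and 3 and 4 of mfn2-/-. This split crosses the genotypes, with 2 libraries in each combination, and results are also given within it. Pax7, the defining stem cell factor, was present in all libraries at 582 to 803. The sum of 10 myogenic markers was higher in every mfn2-/- library than in any wild-type library, as given beside Cyp1b1. Collagen and tendon genes were far more abundant in wild-type libraries, as given beside Cyp1b1. In bulk RNA, fewer cells of a type and less RNA per cell cannot be told apart.

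**Figure D1:**
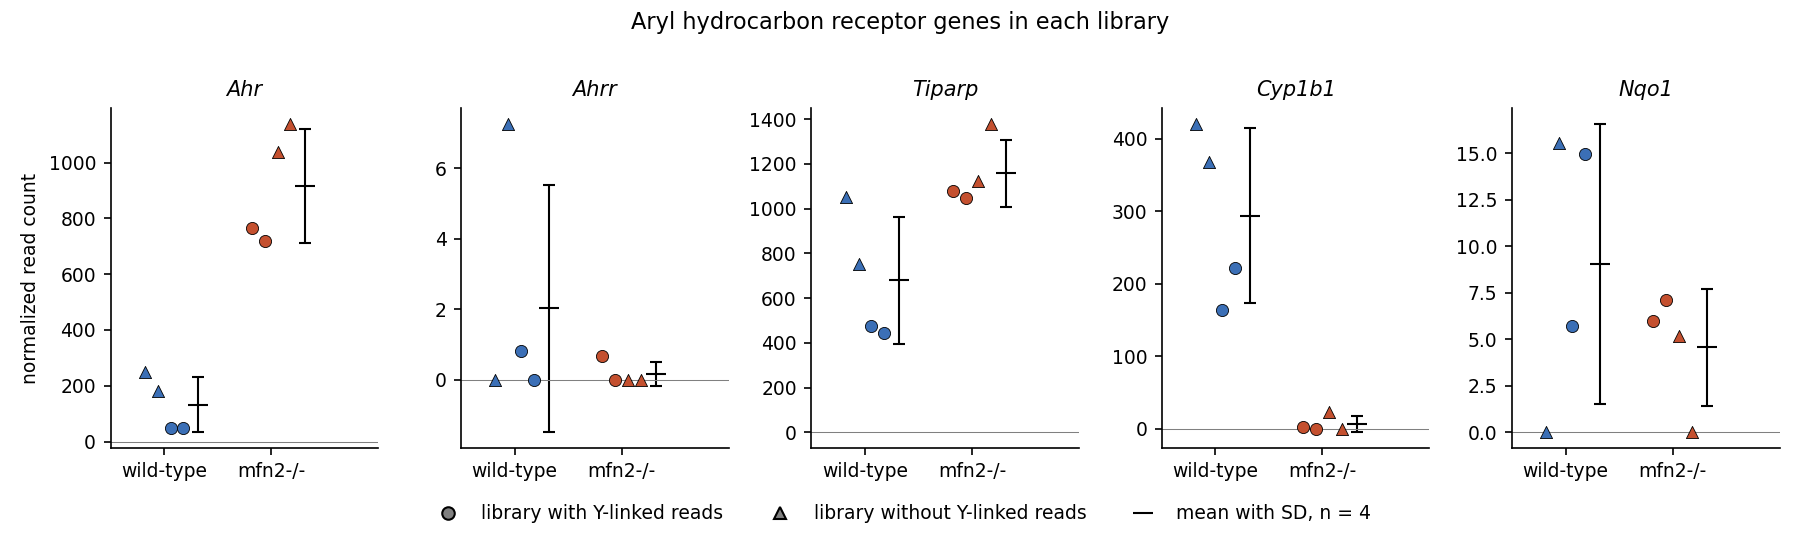
Normalized read counts (y axis, 1 scale per panel) of Ahr, Ahrr, Tiparp, Cyp1b1 and Nqo1 in each wild-type and mfn2-/- library, with points for libraries, circles for those with Y-linked reads and triangles for those without, and a bar for the mean ± SD of 4. Ahr and Cyp1b1 separate the genotypes in opposite directions (133 against 916 and 294 against 6.40), Tiparp touches, and Ahrr and Nqo1 stay below 16.

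Ahr, the receptor (chr12:35497974-35535038, minus strand, GENCODE M21 on GRCm38), had 250.2, 181, 49.8 and 49.1 normalized reads in wild-type replicates 1 to 4. In mfn2-/- replicates 1 to 4 it had 765, 719.7, 1039.8 and 1139.8. The groups did not overlap, and the lowest mfn2-/- library stood far above the highest wild-type library. The means were 133 ± 100.05 and 916 ± 205, a ratio of 6.91 and a log2 difference of 3.11 (SE 0.48). Per kb of its merged exons Ahr went from 21.5 ± 16.2 to 149 ± 33.3 normalized reads. Across all 8 single-library omissions the log2 difference lay between 2.76 and 3.54. An exon of the opposite-strand lincRNA Gm48236, which is not in the table, overlaps Ahr exons, and the strand setting of the counting is not given in the sources used here.

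Ahr also varied inside each genotype along the Y-linked split, a measure that did not enter the choice of the genes. Wild-type libraries without Y-linked reads had 4.36 times the Ahr level of those with them, and for mfn2-/- libraries the ratio was 1.47. In a model with genotype, libraries with Y-linked reads were lower by 1.32 on the log2 scale (SE 0.31), with an adjusted p of 0.132 in limma, while 26 of 11754 genes passed (0.221%). With estimated library weights the difference was -1.35 and passed (limma adjusted p = 0.0361). The genotype difference was 3.88 among libraries with Y-linked reads and 2.35 among those without. That difference of 1.53 (SE 0.41) had an adjusted p of 0.132 in the limma interaction test, which called 173 of 11754 genes (1.47%). By the layout of the split, the interaction contrasts replicates 1 and 2 with replicates 3 and 4 of both genotypes. A difference between these replicate numbers cannot be told apart from it. The libraries without Y-linked reads also had lower estimated weights, meaning more scatter about the fit. These were 0.35, 0.61 (wild-type), 0.91 and 0.17 (mfn2-/-), against 2.07, 2.64, 1.53 and 3.75 with Y-linked reads. The pairs without them correlated at 0.72 (wild-type) and 0.75 (mfn2-/-), against 0.90 and 0.92 with them. The part of library quality in the split, or of anything else beside the Y-linked reads, was not tested.

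Ahrr, the AHR repressor (chr13:74211118-74292331, minus strand), was hardly read. Wild-type replicates 1 to 4 held 0, 7, 1 and 0 reads and mfn2-/- replicates 1, 0, 0 and 0, which are 0, 7.26, 0.817 and 0 against 0.667, 0, 0 and 0 normalized reads. Its mean of 1.09 lay below the filter of 10, and nearly all wild-type reads came from replicate 2. A library with 0 reads allows up to 3 reads, which are 1.60 to 6.82 normalized reads in these libraries, for counting error only. No difference in Ahrr was detectable at this depth.

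Tiparp, the other feedback inhibitor (chr3:65528410-65555518, plus strand), had 1051, 752, 474 and 443 normalized reads in wild-type replicates 1 to 4. The mfn2-/- replicates had 1079, 1049, 1123 and 1379.9. The groups met at their edges, since wild-type replicate 1 lay just above mfn2-/- replicate 2. The means were 679.9 ± 284 and 1158 ± 151, a ratio of 1.70 and a log2 difference of 0.85 (SE 0.26), which did not pass in limma (adjusted p = 0.0585). The value passed under 7 of 23 alternatives, among them without wild-type replicate 1 (1.09, limma adjusted p = 0.0131). The genotype difference was 1.21 among libraries with Y-linked reads and 0.49 among those without (interaction 0.73, limma adjusted p = 0.367). Exons of the opposite-strand pseudogene 4931440P22Rik overlap those of Tiparp, and with the strand setting not given their reads cannot be told apart. This neighbour had 5419.5, 1886, 584 and 495 normalized reads in wild-type and 24.0, 46.6, 168 and 60.5 in mfn2-/- replicates 1 to 4. Its direction between genotypes was opposite to that of Tiparp (log2 difference -4.47, SE 0.70), while the order of the 4 wild-type libraries was the same for both genes. How much the Tiparp values owe to these reads was not tested. Per kb Tiparp was the highest of the 5 genes in both genotypes, at 156 ± 65.1 and 266 ± 34.7.

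Cyp1b1, a CYP1 monooxygenase (chr17:79701537-79715061, minus strand), went the other way from the receptor. Wild-type replicates 1 to 4 had 421, 368, 164 and 222 normalized reads, and mfn2-/- replicates 2.00, 0, 23.6 and 0. The mfn2-/- values rest on 3, 0, 32 and 0 reads, so replicate 3 carries almost all of them, and the 0 reads of replicates 2 and 4 allow up to 2.37 and 5.50 normalized reads. The means were 294 ± 121 and 6.40 ± 11.5, and the wild-type mean was 45.9 times the mfn2-/- mean. The log2 difference was -6.55 (SE 1.08), and it was -8.35 with a pseudocount of 0.1, -4.33 with 10, and -7.58 without mfn2-/- replicate 3. It was -6.79 among libraries with Y-linked reads and -6.31 among those without, where the adjusted p was 0.164 (limma, 2 libraries against 2). The interaction was -0.48 (limma adjusted p = 0.945), and it turned to 0.26 with a pseudocount of 10.

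Connective tissue markers differed between the genotypes in the same direction as Cyp1b1. Values within a genotype are given as a description only, for the summed share of these markers and for Pdgfra, a single one of them. The summed level of 18 fibroadipogenic and tendon markers was 6.14% ± 1.27 of all normalized reads in wild-type libraries (4.99% to 7.35%) and 0.0658% ± 0.0282 in mfn2-/- libraries (0.0325% to 0.0900%). Of 10 fibroadipogenic markers 8 fell, with sums of 172901 to 239606 against 1045 to 3307, and all 8 tendon markers fell, with sums of 36938 to 58437 against 306 to 407. No marker of these lists was at 0 in all 4 mfn2-/- libraries, and Pdgfra had 31.3, 31.6, 64.8 and 0 there against 1919 to 3475 in wild-type. Within wild-type, the libraries with the most Cyp1b1 (421 and 368) had the lowest marker shares (5.11% and 4.99%), and those with 164 and 222 had 7.35% and 7.12%. Pdgfra by itself was 2618 and 3475 in the former and 2112 and 1919 in the latter. The former are the wild-type libraries without Y-linked reads, with the lower weights given beside Ahr. Within mfn2-/-, replicate 3 with the most Cyp1b1 had a marker share of 0.0523%, below the 0.0883% and 0.0900% of replicates 1 and 2. Its Pdgfra was the highest of the 4, and these values rest on 1 library with 32 reads of Cyp1b1. Macrophage markers summed to 52.9 to 155 in wild-type and 101 to 172 in mfn2-/- libraries, and endothelial markers to 998 to 1705 and 1225 to 2144. Mural markers summed to 3727 to 4688 and 2069 to 3472, and of 6 tested Pdgfrb (-2.99) and Cspg4 (-3.95) fell. Glial markers summed to 1594 to 3004 and 1504 to 1968. Myogenic markers summed to 11382 to 15751 in wild-type and 29597 to 42294 in mfn2-/- libraries, and of 10 tested 4 rose and 0 fell. Of all tested genes 3.99% were called higher and 6.36% lower. The sort on Dendra2, switched on through Pax7-Cre(ERT2), was meant to leave non-myogenic cells out, and the part of connective tissue cells in the Cyp1b1 difference was not tested.

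**Figure D2:**
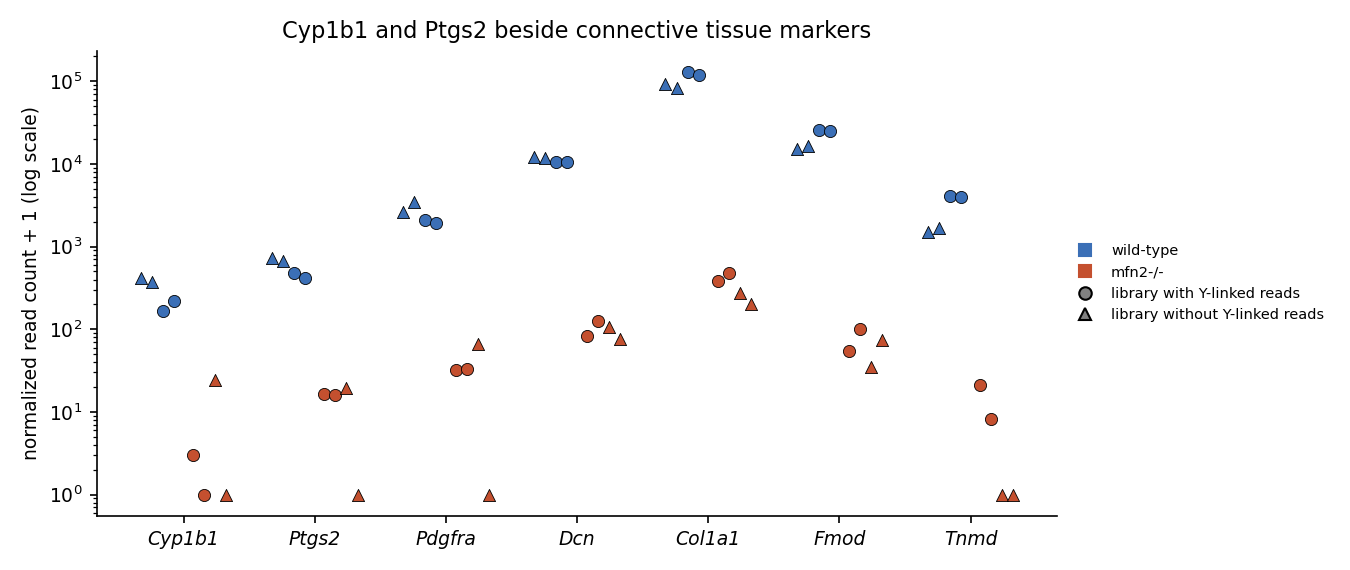
Normalized read count + 1 on a log axis for Cyp1b1, Ptgs2 and 5 connective tissue markers in each library, wild-type in blue at the left of each gene and mfn2-/- in red at the right, with circles for libraries with Y-linked reads and triangles for those without. For all 7 genes every wild-type library lies above every mfn2-/- library, and mfn2-/- replicate 4 has 0 reads of Cyp1b1, Ptgs2 and Pdgfra.

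Nqo1, the quinone reductase (chr8:107388225-107403206, minus strand), was weak in both genotypes. It had 0, 15.6, 5.72 and 14.96 normalized reads in wild-type and 6.001, 7.11, 5.16 and 0 in mfn2-/- replicates 1 to 4, from 50 and 25 reads in all. The values overlapped fully, its mean of 6.81 lay below the filter of 10, and the log2 difference of -0.59 (SE 1.41, fitted without the filter) changed sign without mfn2-/- replicate 4 (0.12). Over the 5 genes, 3 passed the filter. Of these, 1 was called higher and 1 lower, where 3.99% of 11754 tested genes were called higher and 6.36% lower (10.4% either way), and 2 did not overlap, against 19.5% of all tested genes. Since the genes were chosen on this contrast, nothing is read from these counts.

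The rest of the pathway was described through lists. Of 20 genes of the AHR complex and its cofactors, all 20 were tested, and 7 rose and 0 fell. The called share was 35.0%, against 10.4% of all tested genes. The median log2 change was 0.57 against -0.16 over all genes tested. Weak genes are called less often. With only genes of a mean of at least 50, 7 of 19 passed against 1175 of 7640 in all. The medians were then 0.61 and -0.02. Arnt, the DNA-binding partner, had 921, 752, 801 and 616 normalized reads in wild-type and 1554, 1516, 1648 and 1134 in mfn2-/- replicates. These groups did not overlap (log2 change 0.92, SE 0.20, limma adjusted p = 0.00957). Within each library the level of Ahr was 0.0622 to 0.272 times that of Arnt in wild-type and 0.475 to 1.00 times in mfn2-/-, without correction for gene length. Among the chaperones, Ptges3, which encodes p23, rose by 0.92. The coactivators Ncoa3 (0.83) and Ep300 (0.69) rose, as did the NF-kB subunits Rela (1.30) and Relb (1.46) and the partner factor Klf6 (0.94).

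The most abundant genes of that list that did not pass were Hsp90ab1 (0.61, limma adjusted p = 0.203), Hsp90aa1 (0.67, 0.176) and the coactivator Crebbp (0.52, 0.0985). The kinase Src (-2.97, limma adjusted p = 0.110) and Arnt2 (-2.81, 0.150) were lower without passing, beside the connective tissue markers given above, and their relation to these was not tested. The count of 7 was 2 without wild-type replicate 3 and 3 without wild-type replicate 4, mfn2-/- replicate 1 or mfn2-/- replicate 2. Arnt and Klf6 passed in every such omission, while Ptges3, Ncoa3, Ep300, Rela and Relb each failed in at least 2. Without the intensity trend 0 of the 20 passed in limma, against 7 with edgeR and 9 with DESeq2, and 12 had an unadjusted p under 0.05 in the fit with the trend.

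**Figure D3:**
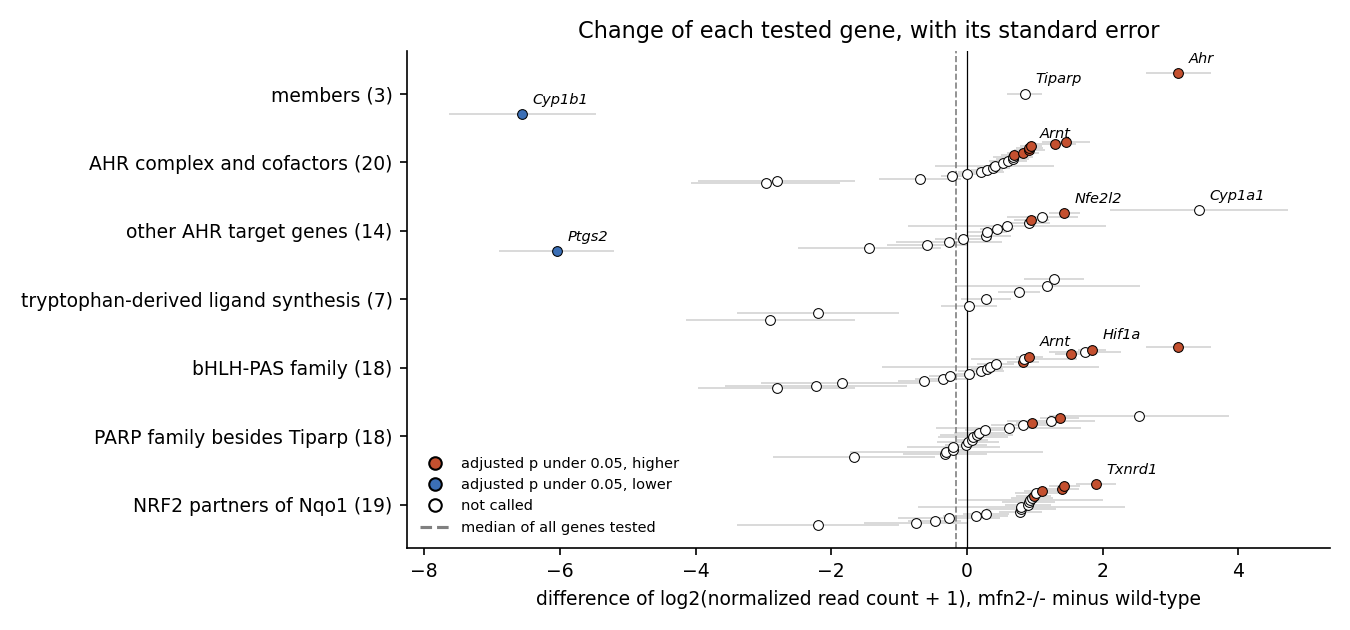
Log2 difference (mfn2-/- minus wild-type, x axis, with SE as grey bars) of each tested member and of each tested gene in the 6 pathway lists, red for genes called higher, blue for lower, white for not called, with a dashed line at the median of all genes tested. Ahr lies at 3.11 and Cyp1b1 at -6.55, and the only other gene called lower is Ptgs2, at -6.05.

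Among 31 other AHR target genes, 24 are in the table and 14 passed the filter. Of these 2 were called higher and 1 lower (21.4%, against 10.4% of all tested genes). With a mean of at least 50, 3 of 11 were called, against 1175 of 7640 in all. Nfe2l2, which encodes NRF2, rose from 331 ± 86.0 to 878 ± 85.2 (1.44, SE 0.23, limma adjusted p = 0.00132), and Xdh, xanthine dehydrogenase, rose by 0.95. Ptgs2, the inducible cyclooxygenase, had 719, 671, 482 and 414 normalized reads in wild-type and 15.3, 15.01, 18.4 and 0 in mfn2-/- replicates. It fell by 6.05 on the log2 scale (SE 0.85, limma adjusted p = 0.000603), alongside the same connective tissue markers, whose part was not tested. The other 11 did not pass, with Nedd9 (0.45), Cdkn1b (0.29) and the amino acid transporter gene Slc7a5 (0.28) the most abundant of them, and the median was 0.37. Xdh failed in 6 of 8 single-library omissions.

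Cyp1a1, the classical induced target, was near the floor in wild-type libraries and uneven in mfn2-/- libraries, where replicate 4 held most of the reads. It had 1, 0, 0 and 0 reads in wild-type and 13, 2, 20 and 59 reads in mfn2-/- replicates 1 to 4, which are 8.67, 1.58, 14.7 and 108 normalized reads in the mutant libraries. The wild-type library with a read lay above mfn2-/- replicate 2, the log2 difference was 3.42 (SE 1.31), and it did not pass in limma (adjusted p = 0.122). By their means the 2 CYP1 genes measured stood on opposite sides, Cyp1b1 at 294 in wild-type and 6.40 in mfn2-/-, and Cyp1a1 at 0.569 and 33.3. No expression value of Cyp1a2 was used here.

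Within the bHLH-PAS family, 18 of 22 genes were tested, 5 rose and 0 fell, and this count includes Ahr. The called share was 27.8%, against 10.4% of all tested genes, and the median was 0.32. With a mean of at least 50, 6 of 13 were called, against 1175 of 7640 in all. Hif1a, the hypoxia factor that shares ARNT with AHR, rose from 812 ± 195 to 2887 ± 433 (1.85, SE 0.20, limma adjusted p = 7.97e-05). Its libraries ran from 634 to 1089 in wild-type and from 2319.9 to 3366 in mfn2-/-. The clock gene Per2 rose by 1.53, and Arnt and Ncoa3 are described above. Epas1 (0.42), Ncoa1 (0.30) and Per1 (-0.26) were the most abundant that did not pass. Of 18 genes of the PARP family besides Tiparp, with ADP-ribose hydrolases, 2 rose and 0 fell, with a median of 0.11, and the called share of 11.1% was close to the 10.4% of all tested genes. They were Parp14 (1.37) and the antiviral protein gene Zc3hav1 (0.95), and Tnks2 (-0.20), Tnks (0.26) and Parp4 (0.08) did not pass. Zc3hav1 failed without wild-type replicate 3 or mfn2-/- replicate 1.

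The NRF2 list was taken for Nqo1, which is a shared target of AHR and NRF2. Of 20 genes, 19 were tested, 5 rose and 0 fell (26.3%, against 10.4% of all tested genes), with a median of 0.90. With a mean of at least 50, 5 of 15 were called, against 1175 of 7640 in all. Txnrd1, thioredoxin reductase, rose by 1.90 and Bach1, a repressor of the same sites, by 1.40, followed by the small MAF gene Mafk (1.11), the adaptor gene Sqstm1 (0.99) and Nfe2l2. Maff (0.79, limma adjusted p = 0.144), Srxn1 (0.91, 0.167) and Hmox1 (1.02, 0.0571) did not pass, and Nqo1 itself had at most 15.6 normalized reads in any library. The count was 3 without wild-type replicate 3 or 4 or mfn2-/- replicate 1 or 2, and the calls of Mafk and Sqstm1 were lost in 4 and 5 of 8 omissions. Of 18 genes of tryptophan-derived ligand synthesis, 7 were tested and 0 were called in limma, as in edgeR and DESeq2, while 3 had an unadjusted p under 0.05. The amino acid transporters Slc3a2 (0.77, limma adjusted p = 0.136), Slc7a8 (1.28, 0.0895) and Slc7a5 (0.28, 0.689) were the most abundant of them, and the median was 0.28.

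**Figure D4:**
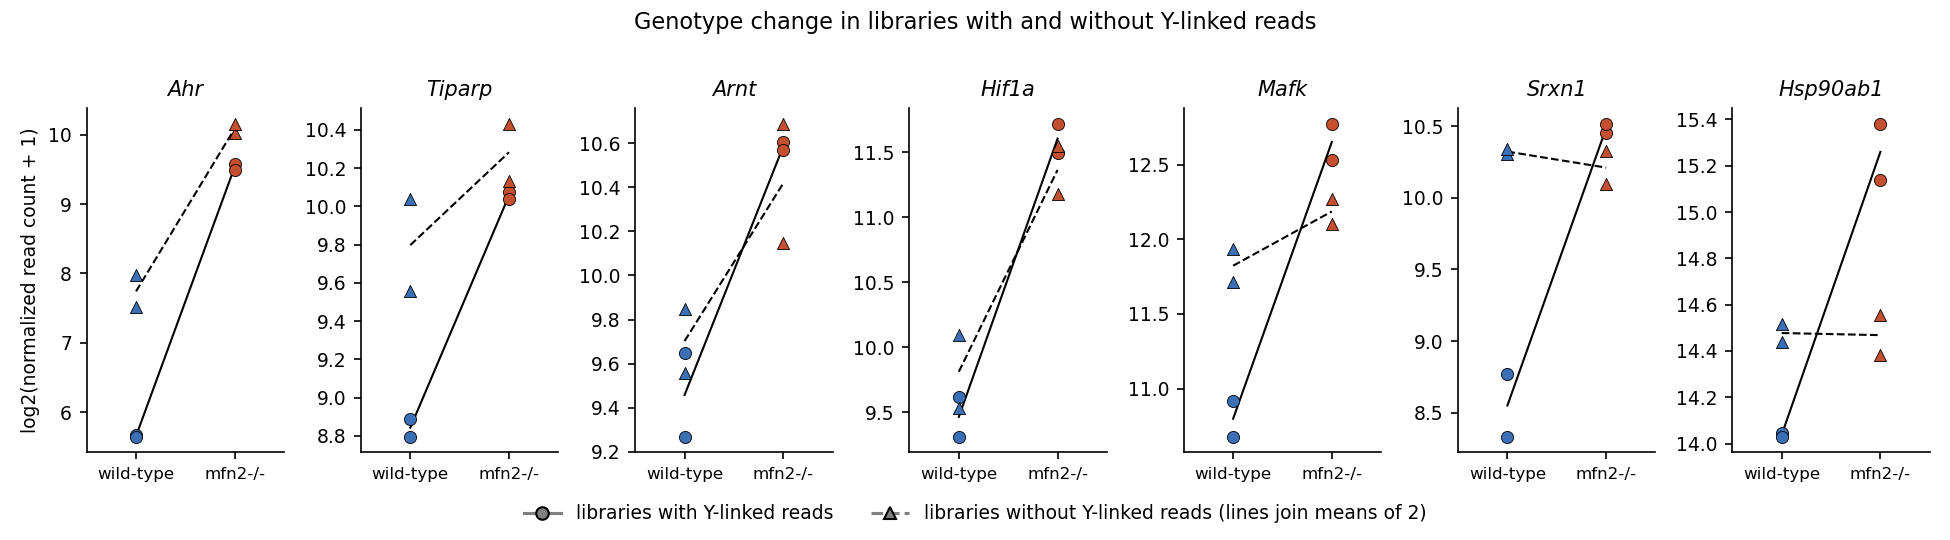
Log2(normalized read count + 1) of Ahr, Tiparp, Arnt, Hif1a, Mafk, Srxn1 and Hsp90ab1 (1 scale per panel) in wild-type and mfn2-/- libraries, with solid lines joining the means of the 2 libraries with Y-linked reads and dashed lines those without. The Ahr lines rise by 3.88 and 2.35, while for Hsp90ab1 the rise is 1.22 with Y-linked reads and -0.01 without.

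The interaction of genotype with the Y-linked split passed for 8 of 90 tested genes of the lists and members (8.89%), where 1.47% of all tested genes passed. In each the genotype difference in log2 was more positive among libraries with Y-linked reads, which was also the direction of 142 of the 173 genes called in all. Since the interaction equals a contrast of replicates 1 and 2 with 3 and 4, a difference between replicate numbers cannot be told apart from it. Of the complex, Hsp90aa1 differed by 1.34 with Y-linked reads and 0.01 without, Hsp90ab1 by 1.22 and -0.01, and Rela by 2.04 and 0.57. Of the NRF2 list, Maff differed by 1.75 and -0.18, Srxn1 by 1.93 and -0.11, Mafk by 1.85 and 0.36, and Sqstm1 by 1.54 and 0.43. The eighth gene, the transporter Slc7a8, differed by 2.58 and -0.01. Ahr lay the same way (3.88 and 2.35) without passing, and so did Tiparp (1.21 and 0.49). The HSP90 differences were close to 0 among the libraries without Y-linked reads. Ahr was chosen on the genotype contrast. Its groups do not overlap over all 8 libraries, so they cannot overlap on either side of the split, and nothing is read from that.

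The genes most like Ahr were named over 5584 genes with a mean of at least 100 by the Pearson correlation of log2(value + 1) across the 8 libraries. They were Txnrd1 (r = 0.99), Tgif1, Litaf, Pknox1 and Atp13a3, and Tiparp ranked 59 (r = 0.96). With group means removed, so that genotype drops out, Gnb2l1, Tgif1, Flnc, Gpx3 and Slc41a1 led, Tiparp ranked 10 (r = 0.97), Nfe2l2 304 (0.80), Hif1a 1183 (0.46), Arnt 1498 (0.35) and Cyp1b1 1567 (0.33). Genes are not replicates, the 8 libraries share the Y-linked split and differ in depth, and these values are a description. Reads of Tiparp cannot be told apart from those of the overlapping 4931440P22Rik, which had the same order of wild-type libraries. Their part in the ranks of Tiparp was not tested.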

How the data were processed

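RNA of sorted ASCs was sequenced from stranded libraries, 4 wild-type and 4 mfn2-/-, grouped by title. The deposited signal is 1 table of normalized read counts per gene, made by the authors from reads divided by 1 size factor per library. The submitters' processing notes name Trim Galore, HISAT2, featureCounts, DESeq2 and the build mm9. Versions, annotation and strand setting are not given in the sources used here. In each column 100% of values were whole multiples of the smallest (tolerance 0.01), so reads were recovered. Depth ranged from 1880464 to 7508215 reads. A single read counted as 0.534 to 2.27 normalized reads, by library. Without molecular identifiers, amplified copies cannot be told from molecules.

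Genes with a mean of at least 10 (11754) were compared on log2(value + 1) by limma 3.58.1 (R 4.3.3), two-sided, using an intensity trend and the Benjamini-Hochberg adjustment at 0.05. The interaction and the Y-linked term were fitted likewise. The genes and lists were chosen with earlier results of these data known. Named were all 5 members, CYP1 genes, Arnt, Hif1a and Nfe2l2, called list genes, the 3 most abundant not called per list, and 5 genes most like Ahr per measure. Arnt2, Src and Gm48236 or 4931440P22Rik were named after their values or positions were seen. The cell type markers named singly (Pax7, Pdgfra, Pdgfrb and Cspg4) were not picked by this rule. Alternatives were pseudocounts of 0.1 and 10, no filter or a mean of at least 50, 3 other scalings, the replicate number as a block, the Y-linked term, no trend, library weights, omission of each library, edgeR 4.0.16 and DESeq2 1.42.0. Scripts were tested on simulated data. Coordinates are of GENCODE M21 (GRCm38), not of mm9, since the table has none.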

Additional observations from a re-analysis of the deposited data

Results flagged for a closer look

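Single libraries stood apart in 5 of 50 groups of 4 libraries examined, where chance gives about 2.5. In 2 of the 5 groups 1 library had 1 read and the others 0, which sets such a library apart by construction, so the chance count does not cover them. Ahrr was highest in wild-type replicate 2 at 7.26 normalized reads (7 reads) and in mfn2-/- replicate 1 at 0.667 (1 read). Cyp1b1 was highest among mfn2-/- libraries in replicate 3 at 23.6 (32 reads), against 0 to 2.00 in the others. Cyp1a1 was highest in wild-type replicate 1 at 2.27 (1 read) and in mfn2-/- replicate 4 at 108 (59 reads), where the other mutant libraries had 1.58 to 14.7. The last library had reads of 9646 genes, the fewest of the 8 libraries.

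The genotype change differed between libraries with and without Y-linked reads in the limma interaction test for 8 list genes. The differences in log2 change were 1.33 for Hsp90aa1 (adjusted p = 0.00376), 1.23 for Hsp90ab1 (0.00436), 1.47 for Rela (0.0431), 2.59 for Slc7a8 (0.0173), 1.49 for Mafk (0.00708), 1.93 for Maff (0.00163), 2.04 for Srxn1 (0.00590) and 1.10 for Sqstm1 (0.0324). All 8 were more positive with Y-linked reads, as were 142 of the 173 genes called in all. The libraries without these reads were also those with the lower weights given beside Ahr, and the part of this was not tested. This interaction also equals a contrast of replicates 1 and 2 with 3 and 4 of both genotypes, and these readings cannot be told apart.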

How the results depend on the processing

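The log2 difference of Ahr passed in all 23 alternatives (2.35 to 3.88), and Cyp1b1 passed in 22 of 23, the exception being the 4 libraries without Y-linked reads. Both genes were chosen on this contrast and every alternative refits these same libraries, so these counts support nothing and only describe how the values move. Cyp1b1 moved to -8.35 with a pseudocount of 0.1 and -4.33 with 10, where its interaction turned to 0.26. Ahrr was -2.81 in edgeR and -2.87 in DESeq2. The count of 1217 genes became 633 without trend (113 higher), 3037 with library weights, 1158 in edgeR and 1738 in DESeq2. The calls were 38.5% higher ones, 17.9% without trend and 57.2% with upper-quartile scaling, which moved the median of all genes by 0.20 (0.23 with quantile normalization). Single-library omissions gave 670 (wild-type replicate 3) to 1307 genes, Ahr 2.76 to 3.54, Ahrr -1.12 to -0.10, Tiparp 0.67 to 1.09, Cyp1b1 -7.58 to -6.04, Nqo1 -1.49 to 0.12 and Mfn2 -1.04 to -0.80. Mfn2 passed with library weights (-0.87). List counts under no trend and library weights were 0 and 14 for the complex (2 to 7 in omissions), 3 and 8 for bHLH-PAS (4 to 5) and 2 and 10 for NRF2 (3 to 6, and 8 with upper-quartile scaling). The PARP count was 0 without trend (1 to 2). Other targets had 5 with weights and 5 in DESeq2 (2 to 4), and tryptophan genes 2 with upper-quartile scaling, 2 with weights, 1 with the replicate block and 1 with the Y-linked term (0 to 1). The interaction count of 173 was 0 without trend, and that of the Y-linked term, 26, was 66 with a pseudocount of 10, 8 without trend and 70 with weights, where Ahr passed (-1.35). Same-numbered libraries deviated together by -0.11 to 0.04 (correlation). In every such pair 1 library has Y-linked reads and the other has none, so these values cannot show whether the libraries were paired. The replicate block gave 1043 genes. The cause of these shifts was not tested. The 2 fits within the Y-linked split were chosen after seeing the data. Depth limits Ahrr, Nqo1, Cyp1a1 and mutant Cyp1b1, each with under 100 reads per group.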
